A study of Mus musculus with 6 samples.

Results

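The condensin subunits Smc2, Smc4, Ncapd2, Ncapg, Ncaph, Ncapd3, Ncapg2 and Ncaph2, together with Top2a and Mki67, were followed through 3 populations of mouse hair follicle cells. The members were taken as every probe set whose platform annotation names 1 of these 10 genes, which gave 26 of the 45037 probe sets that are not controls. In a fit with 1 probe set per gene they are 10 of 18193 genes. RNA was measured on Affymetrix arrays, 2 for each population, and the deposited values are probe set intensities on a linear scale.

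All cells came from back skin of untreated female CD-1 mice and were purified by flow cytometry. Quiescent stem cells of the follicle (qHF-SC) were isolated between postnatal days 52 and 60, using integrin α6 and CD34. Their activated counterparts (aHF-SC) were isolated between postnatal days 28 and 30 by GFP together with these surface proteins. Transient-amplifying matrix cells (HF-TAC), dividing progeny at the base of the growing follicle, came from mice of that younger age, by GFP, integrin α6 and ephrinB1. The labels do not name the GFP allele or the side of each gate. Age and sorting scheme differ between qHF-SC and the other populations, and the sorting scheme differs between aHF-SC and HF-TAC, so neither can be told apart from cell state. Nothing states that the arrays of a group came from separate animals, so p-values reflect array-to-array spread, which may be technical. In bulk RNA of this kind, fewer cells that carry a transcript and less transcript per cell cannot be told apart.

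Condensins are ring-shaped complexes that fold chromatin into loops and compact it into mitotic chromosomes. Condensin I and condensin II share the ATPases Smc2 and Smc4 and differ in their other subunits: Ncapd2, Ncapg and Ncaph belong to condensin I, and Ncapd3, Ncapg2 and Ncaph2 to condensin II. Condensin II is nuclear throughout the cell cycle, whereas condensin I reaches the chromosomes after the nuclear envelope breaks down. Topoisomerase IIα, encoded by Top2a, passes DNA strands through each other and untangles sister chromatids. Mki67 encodes Ki-67, a coat protein of mitotic chromosomes that is widely used as a marker of dividing cells. Stem cells of the hair follicle bulge divide rarely in the resting follicle, and matrix cells divide rapidly.

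The sequence just upstream of the start was examined because most of these genes moved together across the populations. RefSeq promoter windows (GRCm38.p6, 250 bases before to 50 after each start) were found for 9 of the 10 members, with 10 windows, and Smc4 was not among them. The 4 motifs searched on both strands were the cell cycle homology region (CHR) TTTGAA, its variant TTCGAA, the CCAAT box, and an E2F type site TTTNNCGC. Top2a and Mki67 are shown because they had the largest differences of the members from qHF-SC to HF-TAC, Ncapg and Ncapd2 as condensin I subunits, and Ncaph2 as the member that moved least. The 250 bases before the start are given 5′ to 3′ on the gene's strand, and capitals mark matches on either strand.
Top2a, chr11:99024190-99024439, minus strand: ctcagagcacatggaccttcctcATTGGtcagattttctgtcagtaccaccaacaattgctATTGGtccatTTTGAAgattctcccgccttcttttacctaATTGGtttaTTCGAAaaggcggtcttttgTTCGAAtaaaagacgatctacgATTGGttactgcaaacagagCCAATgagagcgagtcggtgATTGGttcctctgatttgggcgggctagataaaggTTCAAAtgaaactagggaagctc
Mki67, chr7:135716380-135716629, minus strand: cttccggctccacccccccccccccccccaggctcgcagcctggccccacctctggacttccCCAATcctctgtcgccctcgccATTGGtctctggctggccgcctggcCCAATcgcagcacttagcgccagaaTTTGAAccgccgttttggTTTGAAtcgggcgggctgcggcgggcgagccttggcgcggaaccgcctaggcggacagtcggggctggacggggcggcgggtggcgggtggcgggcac
Ncapg, chr5:45669675-45669924, plus strand: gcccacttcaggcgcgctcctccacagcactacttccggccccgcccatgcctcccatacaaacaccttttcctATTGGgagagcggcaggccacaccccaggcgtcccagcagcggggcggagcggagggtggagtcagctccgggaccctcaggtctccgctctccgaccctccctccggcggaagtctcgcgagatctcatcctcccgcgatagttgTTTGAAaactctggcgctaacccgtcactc
Ncapd2, chr6:125191587-125191836, minus strand: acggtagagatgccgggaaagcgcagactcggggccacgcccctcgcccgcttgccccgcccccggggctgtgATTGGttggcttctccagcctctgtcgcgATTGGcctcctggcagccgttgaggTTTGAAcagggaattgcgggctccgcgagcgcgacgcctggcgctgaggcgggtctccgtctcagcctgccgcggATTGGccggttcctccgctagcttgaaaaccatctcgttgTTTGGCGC
Ncaph2, chr15:89355469-89355718, plus strand: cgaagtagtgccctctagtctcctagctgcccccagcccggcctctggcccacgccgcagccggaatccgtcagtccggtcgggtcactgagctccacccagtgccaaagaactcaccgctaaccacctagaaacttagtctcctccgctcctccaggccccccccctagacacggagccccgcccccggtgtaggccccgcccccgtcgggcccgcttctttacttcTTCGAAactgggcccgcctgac

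In these windows the Top2a promoter held 6 CCAAT boxes, 2 CHR matches and 2 variant matches. Mki67 and Ncapd2 each held 3 CCAAT boxes. Of all 32851 windows in the table, 3.37% held 3 or more CCAAT boxes and 37.4% held at least 1, as did 5 of the 9 members. A CHR match was present in 7 of the 9 members, counted per gene, with Ncapd3 through 1 of its 2 windows, and in 17.9% of all windows. The nearest upstream lay 18 bases before the start in Ncapg2, 23 in Top2a and 30 in Ncapg. The variant TTCGAA occurred in Top2a and Ncaph2 and in 1.56% of all windows. The E2F type letters occurred in Ncapd2, Ncapg and Ncapg2 and in 5.17% of all windows. Ncaph had none of the 4 motifs. These are matches of letters, and no array measured binding at them.

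Across all genes, which are not independent replicates, log2 values of replicate arrays correlated at r = 0.989 to 0.992. The array medians lay between 22.8 and 24.0, and a level of 16.8 was read as background. It is the highest of the 6 array medians over 16 genes of other tissues, of which 8, 8 and 9 had means at or under it in qHF-SC, aHF-SC and HF-TAC. Of 10 bulge markers none was at background in any population, and their median intensity was 2359 to 2872 in qHF-SC, 2385 to 3099 in aHF-SC and 225 to 285 in HF-TAC. Of 9 hair matrix markers none was at background, and their median was 90.3 to 116, 94.3 to 102 and 537 to 906. The matrix ligand gene Shh stood at 26.4 and 18.1 in qHF-SC, 23.01 and 39.8 in aHF-SC and 735 and 906 in HF-TAC. The summed level of 5 endothelial markers, with Pecam1, Tie1 and Emcn at background in every population, was 67.6 to 88.5, and that of 6 immune markers, with Ptprc and Itgam at background, was 133 to 198. Of 6 muscle markers, Myh11 and Myl1 were at background in every population, but Acta2 and Tagln, actin cytoskeleton genes of smooth muscle, rose 48.8-fold and 28.2-fold from qHF-SC to aHF-SC (adjusted p = 0.00199 and 0.00159). The list's summed level was 179 to 194 in qHF-SC, 4536 and 2284 in aHF-SC replicates 1 and 2, and 351 to 502 in HF-TAC. Of 6 fibroblast markers, Lum and Pdgfra were at background in every population, and the list had median log2 differences of 0.19, -0.29 and -0.13 in aHF-SC against qHF-SC, HF-TAC against aHF-SC and HF-TAC against qHF-SC. Its gene Dcn, singled out after its values were seen, stood at 3646 and 5927 in HF-TAC against 86.8 or less in the stem cells, while Col1a2 was lower in HF-TAC than in qHF-SC (-1.73, adjusted p = 0.0194). Of 9 inner root sheath and hair shaft markers, 3, 8 and 8 were called higher in the same 3 comparisons, and their summed level was 538 to 670 in qHF-SC, 978 to 1361 in aHF-SC and 8350 to 18852 in HF-TAC. Of 9 markers of differentiated keratinocytes, 3 were lower in activated than in quiescent cells and 5 higher in HF-TAC than in aHF-SC (summed levels 27595 to 27975, 13285 to 15792 and 24299 to 39652). The summed level of 6 melanocyte markers was 1783 to 1956 in qHF-SC, 435 to 514 in aHF-SC and 512 to 695 in HF-TAC. Mitf was the 1 gene of that list called lower in aHF-SC (-3.27, adjusted p = 0.000589), where 4 of the 6 differences were above 0. The list's median log2 differences in the same 3 comparisons were 0.45, 0.60 and 1.10, with 0, 0 and 3 genes called higher and 1 lower in each. Of 5 sebaceous gland markers, 1 was lower in activated than in quiescent cells and 2 were higher in HF-TAC than in aHF-SC, and of 5 dermal papilla markers 1 was higher in HF-TAC than in aHF-SC. The part of all these lists in the members' values was not tested.

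**Figure D1:**
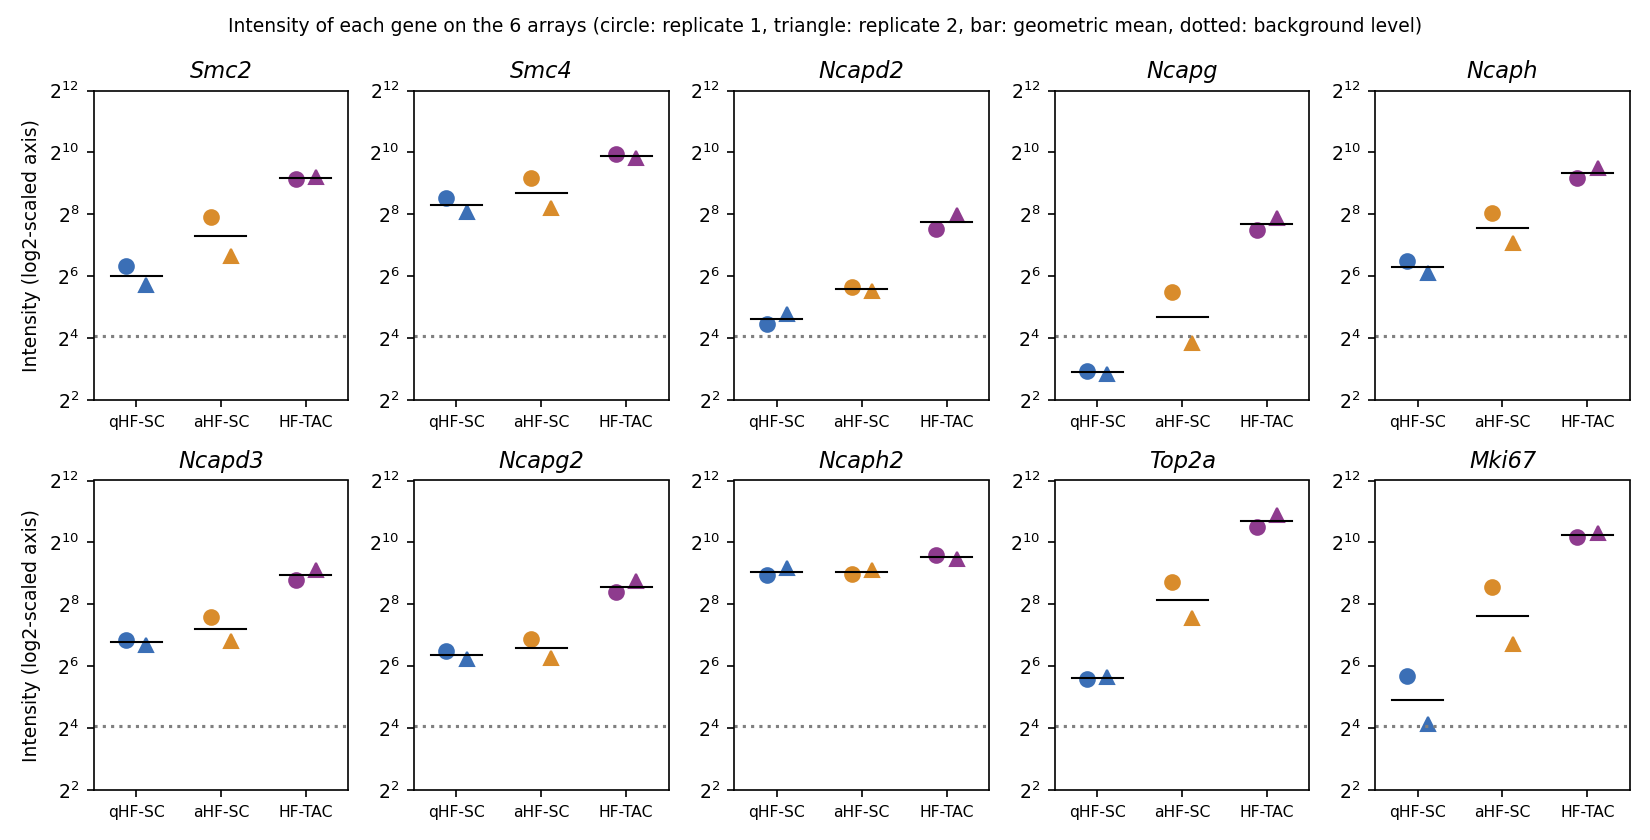
Intensity of the 10 genes on the 6 arrays, through 1 probe set per gene (vertical axes log2-scaled; circles are replicate 1, triangles replicate 2, bars geometric means; the dotted line is the background level of 16.8). HF-TAC lay above both stem cell groups for every gene, by the smallest margin for Ncaph2; levels of different genes should not be set against each other, since each probe set has its own brightness.

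The step from quiescent to activated stem cells raised Top2a and Ncapd2 by limma (adjusted p under 0.05 over all genes), which is 2 of the 10 members, against 3.07% of all genes called higher, and none was lower, against 3.21%. The other 8 did not pass, and 9 of the 10 differences were above 0. Arrays of the groups did not overlap, with aHF-SC higher, for 6 members (Smc2, Ncapd2, Ncapg, Ncaph, Top2a and Mki67), against 25.7% of all genes. The members' median difference was 1.11 on the log2 scale and that of all genes 0.0048.

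Top2a stood at 47.7 and 49.8 in qHF-SC and at 419 and 187 in aHF-SC. Both activated arrays lay far above both quiescent ones, which nearly coincided. The log2 difference was 2.52 ± 0.35 (SE), or 5.74-fold (limma adjusted p = 0.0118). Mki67 stood at 51.99 and 17.5 in qHF-SC, where replicate 2 was close to background, and at 378 and 105 in aHF-SC. The groups did not overlap, but each pair of replicates was about 3-fold or more apart (2.98-fold in qHF-SC and 3.58-fold in aHF-SC). Its difference was 2.73 ± 0.65 (SE) and missed the threshold (adjusted p = 0.0562).

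Of the shared ATPases, Smc2 stood at 80.6 and 52.1 in qHF-SC and at 240.3 and 102 in aHF-SC, without overlap. Its log2 difference was 1.27 ± 0.39 (SE; limma adjusted p = 0.115). Smc4 stood at 366 and 272 in qHF-SC and at 583 and 296 in aHF-SC. Its groups overlapped, since replicate 2 of aHF-SC lay between the quiescent arrays, and the difference was 0.40 ± 0.31 (SE; adjusted p = 0.58).

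The condensin I subunits all had positive differences. Ncapd2, a HEAT-repeat subunit, stood at 22.0 and 27.2 in qHF-SC, not far above the background level, and at 50.1 and 45.6 in aHF-SC, with close replicates in both groups. The rise was 1.95-fold (log2 difference 0.97 ± 0.21 SE, limma adjusted p = 0.0404), and its size is uncertain so close to background. Ncapg, the other HEAT-repeat subunit, was at background in qHF-SC (7.71 and 7.24) and stood at 45.0 and 14.5 in aHF-SC, where replicate 2 was also under the background level. Its difference of 1.77 ± 0.46 (SE) did not pass (adjusted p = 0.074). Ncaph, the kleisin that closes the ring, stood at 90.3 and 68.6 in qHF-SC and at 263 and 134 in aHF-SC. Its difference was 1.26 ± 0.32 (SE; adjusted p = 0.0689).

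The condensin II subunits showed smaller differences, and limma called 0 of 3, with 0 under an unadjusted p of 0.05. Ncapd3 stood at 116 and 104 in qHF-SC and at 195 and 114 in aHF-SC (0.44 ± 0.26 SE, adjusted p = 0.427). Ncapg2 stood at 89.8 and 75.3 in qHF-SC and at 118 and 77.3 in aHF-SC (0.22 ± 0.24 SE, adjusted p = 0.722). The kleisin Ncaph2 stood at 492 and 577 in qHF-SC and at 501 and 549 in aHF-SC (-0.023 ± 0.16 SE, adjusted p = 0.968). In each of these 3 genes replicate 2 of aHF-SC lay within the range of the quiescent arrays, so the groups overlapped.

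These calls depended on single arrays, but calls over all genes also became fewer when any 1 stem cell array was left out. Ncapd2 no longer passed when any stem cell array was removed (adjusted p of 0.186 without qHF-SC replicate 1, 0.127 without its replicate 2, 0.167 without aHF-SC replicate 1 and 0.118 without its replicate 2), and the Top2a call ended without qHF-SC replicate 2 (0.0817). With an offset of 16 added before log2, 0 members passed, against 1.2% of all genes called higher. Without aHF-SC replicate 2, Mki67, Ncapg, Ncaph and Smc2 passed as well as Top2a, although fewer of all genes were called. That fit rests on a single activated array. Leaving out aHF-SC replicate 1 or replicate 2 moved the log2 difference to 0.95 or 2.59 for Ncapg, 0.65 or 1.89 for Smc2, 0.77 or 1.74 for Ncaph, 1.81 or 3.65 for Mki67 and 0.053 or 0.83 for Ncapd3.

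**Figure D2:**
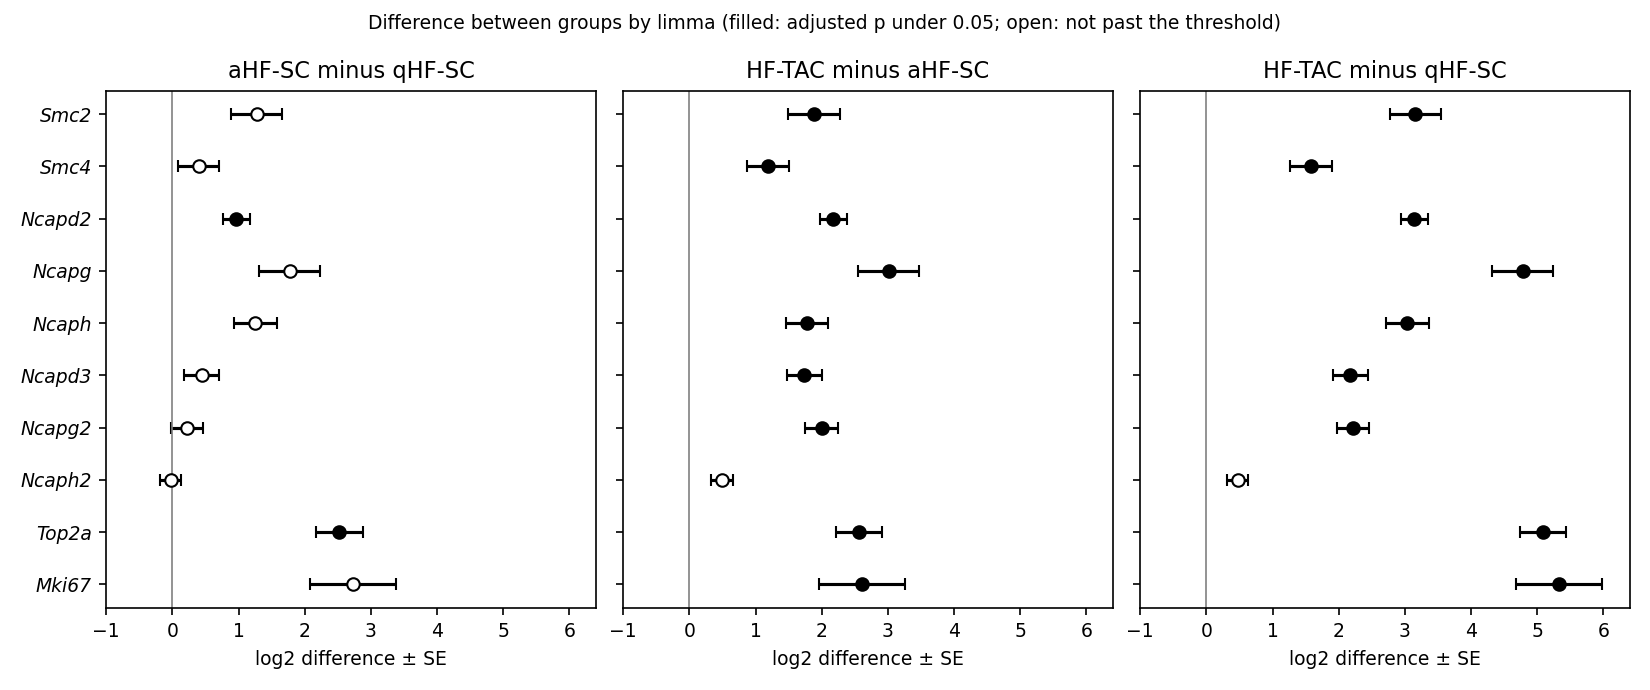
log2 differences between the populations for the 10 genes, with their standard errors from limma (horizontal axes; filled points have an adjusted p under 0.05, open points do not). Filled points number 2 in aHF-SC minus qHF-SC and 9 in each comparison with HF-TAC, where Ncaph2 is the open point.

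The spread between the activated arrays ran 1 way over almost the whole family. Replicate 1 of aHF-SC was higher than replicate 2 for 9 of the 10 members, with a median ratio of 1.97, against 47.4% of all genes and a median ratio of 0.987. The ratio was 3.58 for Mki67, 3.11 for Ncapg, 2.36 for Smc2 and 2.24 for Top2a, and it was 0.911 for Ncaph2, the exception. In qHF-SC the members' median ratio was 1.16, and in HF-TAC it was 0.805. Of 24 other G2/M and mitosis genes, 23 were higher in aHF-SC replicate 1 (median ratio 2.06), as were 20 of 20 G1/S and DNA replication genes (median ratio 1.39). The dissociation stress list, genes that respond within minutes to tissue handling, went the other way, with 1 of 12 higher in replicate 1 and a median ratio of 0.654. Its summed level was 28269 to 34712 in qHF-SC, 74238 and 107163 in aHF-SC replicates 1 and 2, and 53634 to 61919 in HF-TAC, and 9 of its 12 genes were called higher in aHF-SC than in qHF-SC. The part of this in the members' values was not tested. The hair matrix list had 3 of 9 genes higher in replicate 1 (median ratio 0.957).

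**Figure D3:**
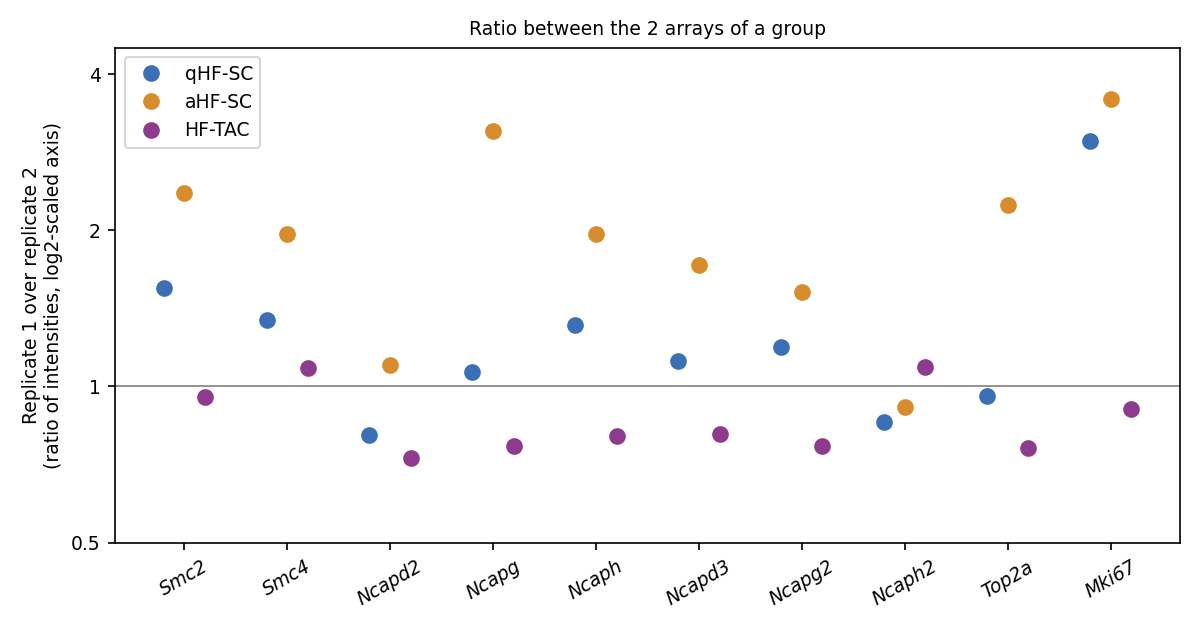
Ratio of replicate 1 to replicate 2 within each population for the 10 genes (vertical axis log2-scaled). The aHF-SC points lie above 1 for every gene but Ncaph2, reaching 3.58 for Mki67, whereas the HF-TAC points lie between 0.727 and 1.09.

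From activated stem cells to their matrix progeny, at equal age, 9 of the 10 members rose by limma, against 8.97% of all genes called higher, and none fell, against 8.57%. Ncaph2 alone did not pass through its brightest probe set. Arrays did not overlap for any member, with HF-TAC higher for all 10, against 26.4% of all genes. The median difference was 1.94 on the log2 scale, and -0.012 over all genes.

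Top2a reached 1444 and 1901 in HF-TAC, above the 419 and 187 of aHF-SC, a rise of 5.91-fold (2.56 ± 0.35 SE on the log2 scale, limma adjusted p = 0.00318). Mki67 reached 1154 and 1274, a rise of 6.08-fold (2.60 ± 0.65 SE, adjusted p = 0.0338). In both genes the matrix replicates were close to each other and the activated arrays far apart. Smc2 reached 565 and 593 and rose 3.70-fold (1.89 ± 0.39 SE, adjusted p = 0.0163). Smc4 reached 983 and 906 and rose 2.27-fold (1.18 ± 0.31 SE, adjusted p = 0.0414).

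All 3 condensin I subunits rose. Ncapg, at 180 and 235 in HF-TAC, had the largest difference of the 10 members through the brightest probe sets, 8.06-fold (3.01 ± 0.46 SE, adjusted p = 0.00494). Replicate 2 of aHF-SC was under the background level and its second probe set rose 4.01-fold, so its size and rank are uncertain. Ncapd2, at 184 and 253, rose 4.52-fold (2.17 ± 0.21 SE, adjusted p = 0.000865). Ncaph, at 579 and 721, rose 3.44-fold (1.78 ± 0.32 SE, adjusted p = 0.00925). Of condensin II, Ncapg2 rose 3.99-fold (adjusted p = 0.00211), from 118 and 77.3 to 334 and 435. Ncapd3 rose 3.33-fold (adjusted p = 0.00466), from 195 and 114 to 446 and 551. Neither had passed between the stem cell states, and in HF-TAC both arrays of each stood above every stem cell array. Ncaph2 stood at 771 and 707 in HF-TAC, above its 501 and 549 in aHF-SC, and its difference of 0.49 ± 0.16 (SE) missed the threshold (adjusted p = 0.0795).

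The Smc4 call ended when any array except aHF-SC replicate 1 was left out (adjusted p from 0.0607 to 0.147), that of Mki67 without aHF-SC replicate 2 (0.147), HF-TAC replicate 1 (0.0872) or HF-TAC replicate 2 (0.116), and that of Smc2 without HF-TAC replicate 2 (0.0645). Without aHF-SC replicates 1 and 2 in turn, the log2 difference was 3.83 and 2.19 for Ncapg, 2.51 and 1.27 for Smc2 and 3.52 and 1.68 for Mki67.

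Matrix cells and quiescent stem cells were the farthest apart, and the same 9 members rose by limma, against 13.4% of all genes called higher, and none fell, against 12.9%. Arrays did not overlap for all 10, with HF-TAC higher, against 30% of all genes. The comparison shares its arrays with the others, so it is not a further test of them. Mki67 rose 40.3-fold (log2 difference 5.33 ± 0.65 SE, adjusted p = 0.00113) and Top2a 34.0-fold (5.09 ± 0.35 SE, adjusted p = 0.000122). Only 0.104% and 0.137% of all genes had a larger positive difference. Ncapg rose 27.5-fold (4.78 ± 0.46 SE, adjusted p = 0.000443) from background, so the size of its fold is uncertain.

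Smc2, Ncapd2 and Ncaph rose by nearly equal amounts, 8.94-fold, 8.81-fold and 8.21-fold (adjusted p = 0.00117, 0.000108 and 0.000636). Ncapd2 started near background, so the size of its fold is uncertain. Ncapg2 and Ncapd3 also rose alike, 4.64-fold and 4.52-fold (adjusted p = 0.000756 and 0.00109), but the second Ncapd3 probe set above background rose 2.41-fold. Smc4 rose 2.99-fold (1.58 ± 0.31 SE, adjusted p = 0.00922), and its call ended without qHF-SC replicate 2 (0.0666). Ncaph2 differed by 0.47 ± 0.16 (SE) and did not pass (adjusted p = 0.0712). Mki67 differed by 6.12 without qHF-SC replicate 1 and by 4.54 without replicate 2.

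The complexes were set side by side through values centred on each gene's own mean over the 6 arrays and averaged over the subunits. For condensin I these means were -1.63 and -1.69 in qHF-SC, 0.13 and -0.79 in aHF-SC, and 1.80 and 2.19 in HF-TAC (log2 units). For condensin II they were -0.58 and -0.64, -0.19 and -0.61, and 0.92 and 1.10 in the same order. Condensin I minus condensin II was -1.05 on both quiescent arrays, 0.32 and -0.18 on the activated ones, and 0.88 and 1.08 on the matrix ones. The populations did not overlap in this contrast, which was not tested, and Ncaph2 contributed the smallest differences of the condensin II subunits. Ncapg contributed the largest of condensin I, from values at background in qHF-SC and on aHF-SC replicate 2; without it the contrast was -0.80 and -0.78, 0.18 and 0.040, and 0.58 and 0.78 in the same order, again without overlap. For Smc2 and Smc4 the means were -0.80 and -1.33, 0.32 and -0.79, and 1.31 and 1.29.

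By group means the activated stem cells stood at different points relative to the other populations for different members, which was not tested. On the log2 scale aHF-SC had covered 51.2% of the way from qHF-SC to HF-TAC for Mki67 and 49.6% for Top2a. The share was 41.3% for Ncaph, 40.3% for Smc2 and 30.7% for Ncapd2, which starts near background. For Ncapg, whose starting point was at background, it was 37.0% and is uncertain. It was 25.01% for Smc4, 20.3% for Ncapd3 and 9.73% for Ncapg2, and -4.86% for Ncaph2, whose difference from qHF-SC to HF-TAC did not pass. The 2 activated arrays bracketed these shares widely, at 68.4% and 33.9% for Mki67 and at 38.1% and 2.44% for Ncapd3. They stood at 56.0% and -5.95% for Smc4 and at 23.5% and -4.02% for Ncapg2. Many of these ranges overlapped, so the order of the members is uncertain. For Ncapd2 the 2 arrays lay close together, at 32.9% and 28.5%.

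Likeness between genes was measured as the root mean square difference of the centred log2 values over the 6 arrays, which share cell group and array. Only genes with a mean intensity over the 6 arrays of at least 50 were compared, a level that a gene can reach through HF-TAC alone. Smc2 and Ncaph lay 0.13 apart, and Ncaph was the nearest of 9933 other genes to Smc2. Ncapd3 and Ncapg2 also lay 0.13 apart and were the 5th and 3rd nearest to each other. Top2a and Mki67 lay 0.53 apart. Outside the family, the 5 genes nearest to Top2a were Pbk, Kif20a, Shcbp1, Melk and Cdca3, at 0.11 to 0.17. Those nearest to Mki67 were Nusap1, Ccna2, Cenpf, Birc5 and Cenpa, at 0.38 to 0.39, and those nearest to Smc2 were Anln, Stil, Kntc1, Hmgb2 and Gmnn, at 0.16 to 0.22. Those nearest to Ncaph2 were Smim20, Ppie, Ddx49, Ngdn and Trmt1, at 0.034 to 0.057; a gene that varies little is close to every other such gene by this measure.

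The 26 probe sets did not all follow the values above, which came from the brightest probe set of each gene. Fitted as 45037 separate probe sets, 3 of the 26 were higher in aHF-SC than in qHF-SC (2.35% of all probe sets), 18 were higher in HF-TAC than in aHF-SC (5.98%) and 19 were higher in HF-TAC than in qHF-SC (10.3%). None of the 26 was called lower, against 2.66%, 5.48% and 9.78% of all probe sets. In the same order, the first-named group lay above the other without overlap for 10, 22 and 23 of the 26, against 22.7%, 23.8% and 26.4% of all probe sets. In all 3 populations 4 were at background, 1 each for Ncapd2, Ncapd3, Smc2 and Top2a, and none of these passed in any comparison (adjusted p from 0.649 to 0.983). They say nothing on those transcripts.

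For Top2a the values rested on probe set 1454694_a_at. Probe set 1442454_at, a dim one, stood at 26.5 and 29.2 in qHF-SC, 30.5 and 20.1 in aHF-SC and 55.9 and 50.2 in HF-TAC. It rose 2.14-fold from aHF-SC to HF-TAC (limma over probe sets, adjusted p = 0.0154) and differed by -0.17 between the stem cell states (adjusted p = 0.784). The remaining one, 1427724_at, ran from 9.12 to 16.4 over the 6 arrays. The Top2a call between the stem cell states was therefore made by 1 of 3 probe sets, and with their mean Top2a did not pass (0.74 on the log2 scale, adjusted p = 0.146).

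Ncaph showed the reverse. Its brighter probe set carries the suffix x_at, which marks probes that can bind other transcripts. The other, 1423920_at, without that suffix, stood at 38.8 and 36.9 in qHF-SC, 127 and 91.4 in aHF-SC and 325 and 445 in HF-TAC, with close replicates in qHF-SC. It rose 2.84-fold from qHF-SC to aHF-SC (adjusted p = 0.0123) and 3.53-fold from aHF-SC to HF-TAC (adjusted p = 0.00217). That probe set therefore passed between the stem cell states where the brighter one did not.

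Ncaph2 had 4 probe sets, which disagreed, and the values above came from the brightest, 1439360_x_at, which also carries the suffix x_at. Probe set 1423698_at stood at 378 and 452 in qHF-SC, 403 and 448 in aHF-SC and 712 and 642 in HF-TAC, and it rose 1.59-fold from aHF-SC to HF-TAC (adjusted p = 0.0371). Probe set 1423699_at ran from 56.9 and 66.4 through 85.5 and 100.7 to 137 and 135, and it rose 2.21-fold from qHF-SC to HF-TAC (adjusted p = 0.00218). Probe set 1429477_at lay below its qHF-SC values in both other populations, at 58.1 and 57.8 in qHF-SC, 33.2 and 33.6 in aHF-SC and 40.0 and 57.1 in HF-TAC. From aHF-SC to HF-TAC its log2 difference was 0.52, above 0 like those of the others. It passed in no comparison (limma adjusted p between 0.0598 and 0.404). Averaged over the 4, Ncaph2 passed in both comparisons with HF-TAC (adjusted p = 0.0308 against aHF-SC and 0.0297 against qHF-SC). It also passed in both without the s_at, x_at and a_at probe sets (log2 differences 0.67 and 0.71) and with an offset of 16.

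Of the 5 Smc2 probe sets, 4 rose in both comparisons with HF-TAC (1.75-fold to 4.17-fold against aHF-SC, adjusted p from 0.00863 to 0.0236). The 1.75-fold came from 1429659_at, which was at background in both stem cell groups, so its size is uncertain. Between the stem cell states the dimmer ones showed less than the brightest: 1429658_a_at stood at 26.3 and 18.6 in qHF-SC and 39.5 and 20.0 in aHF-SC. Of the 3 Smc4 probe sets, 2 rose in both comparisons with HF-TAC, and 1427276_at, with replicates far apart in every population (387 and 237 in HF-TAC), did not pass (adjusted p = 0.0929 and 0.0542). The second Ncapg probe set, 1429172_a_at, stood at 10.2 on both quiescent arrays, 31.9 and 12.1 in aHF-SC and 83.1 and 74.6 in HF-TAC, and rose 4.01-fold from aHF-SC to HF-TAC (adjusted p = 0.015). The second Ncapd3 probe set above background, 1434426_at, rose 2.36-fold in that comparison (adjusted p = 0.00984), to 113 and 157 from 65.6 and 48.5. Between the stem cell states it differed by 0.030 on the log2 scale (limma adjusted p = 0.971).

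**Figure D4:**
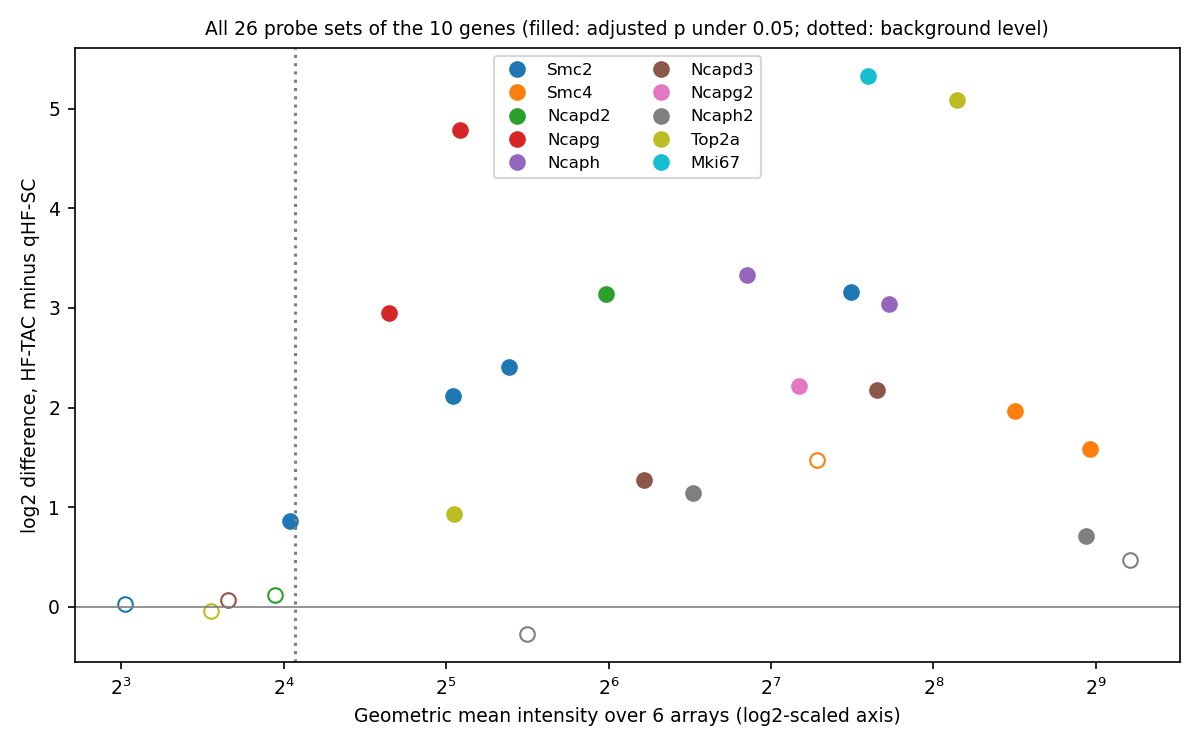
All 26 probe sets by geometric mean intensity over the 6 arrays (horizontal axis, log2-scaled) and log2 difference between HF-TAC and qHF-SC (vertical axis); filled points have an adjusted p under 0.05 and the dotted line is the background level of 16.8. The 19 filled points lie above 0, and the 4 probe sets at background in all populations lie close to 0.

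Related gene lists were counted in the same way, with no test of their difference from the members. Of 17 genes of the cohesin ring, which holds sister chromatids together, and its regulators, 2 were higher in aHF-SC than in qHF-SC, 8 were higher in HF-TAC than in aHF-SC and 8 higher in HF-TAC than in qHF-SC, with 0 lower in each. Their median log2 differences were -0.080, 0.72 and 0.44, where the members had 1.11, 1.94 and 3.09. Cdca5, which encodes sororin, a protector of cohesion, stood at 19.8 and 20.4 in qHF-SC, 175 and 99.3 in aHF-SC and 847 and 983 in HF-TAC. It rose 6.55-fold in the first step (adjusted p = 0.00367) and 6.92-fold in the second (adjusted p = 0.00086). Esco2, an acetyltransferase that establishes cohesion, was at background in qHF-SC and rose 7.34-fold from aHF-SC to HF-TAC (adjusted p = 0.00586). Sgo1, a shugoshin that protects cohesion at centromeres, and Pttg1, the separase inhibitor securin, rose 4.41-fold and 3.97-fold in that comparison (adjusted p = 0.00681 and 0.0173), and the Pttg1 call ended without HF-TAC replicate 1 (0.0724). Espl1, which encodes separase, rose 2.71-fold from qHF-SC to aHF-SC (adjusted p = 0.0442), a call that ended without qHF-SC replicate 2 (0.241), aHF-SC replicate 1 (0.178) or aHF-SC replicate 2 (0.134). Of the core ring genes, Rad21, the kleisin, was higher in HF-TAC than in aHF-SC by 1.78-fold (adjusted p = 0.0325) and than in qHF-SC by 1.69-fold (adjusted p = 0.0331). The Rad21 calls ended without either qHF-SC array (0.0523 in both cases against aHF-SC, 0.0718 and 0.177 against qHF-SC), either HF-TAC array (0.0522 to 0.143), or, against aHF-SC, without aHF-SC replicate 2 (0.166). Smc1a and Smc3, the ATPases of the ring, did not pass in any comparison (log2 differences from -0.094 to 0.53). Each array left out moved some, but not always all, of the counts of 2, 8 and 8, and it also moved calls over all genes.

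Of 7 genes of the Smc5/6 complex, a relative of condensin that acts in DNA repair, limma called 0 between the stem cell states (2 under an unadjusted p of 0.05; the lowest adjusted p was 0.0927, for Nsmce1), and 2 were higher in HF-TAC than in either. They were Nsmce4a, at 1.73-fold against aHF-SC (adjusted p = 0.00897), whose call there ended without aHF-SC replicate 2 (0.0544), and Nsmce2, at 1.64-fold (adjusted p = 0.043), whose call ended without either aHF-SC array (0.13 and 0.164) or HF-TAC replicate 2 (0.185). Against qHF-SC the Nsmce2 call (1.63-fold, adjusted p = 0.0318) ended without any of these 3 arrays or qHF-SC replicate 2 (0.0517 to 0.186).

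Of the 5 other topoisomerase genes limma called 0 higher in any comparison. Top2b, the paralog of Top2a, stood at 828 and 578 in qHF-SC, 934 and 673 in aHF-SC and 869 and 979 in HF-TAC, with overlapping groups, and its log2 difference between HF-TAC and qHF-SC was 0.41 ± 0.24 (SE; adjusted p = 0.269). Top1mt, the mitochondrial type I enzyme, was 2.75-fold lower in the activated stem cells (129 and 113) than in the quiescent ones (315 and 353; adjusted p = 0.00508), and was 3.23-fold lower in HF-TAC (adjusted p = 0.000352). Its call between the stem cell states ended without qHF-SC replicate 2 (0.0549). Between HF-TAC and aHF-SC limma called 0 of the 5 (1 under an unadjusted p of 0.05; the lowest adjusted p was 0.142, for Top3a).

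Of 17 measured regulators of condensin and proteins of the chromosome surface, 6 were higher in aHF-SC than in qHF-SC, 11 higher in HF-TAC than in aHF-SC and 11 higher in HF-TAC than in qHF-SC, with 0 lower. Birc5 (survivin, part of the passenger complex of mitotic chromosomes) had the largest difference in the first step, from 38.3 and 21.8 in qHF-SC to 396 and 188 in aHF-SC, and stood at 1452 and 1681 in HF-TAC. It rose 9.45-fold and then 5.73-fold (adjusted p = 0.00773 and 0.00479). Cdk1, the mitotic kinase that phosphorylates condensin, stood at 45.7 and 40.6 in qHF-SC, 439 and 225 in aHF-SC and 1663 and 2056 in HF-TAC. It rose 7.29-fold and then 5.88-fold (adjusted p = 0.00508 and 0.00194). Plk1, a further mitotic kinase, rose 4.53-fold and 5.23-fold (adjusted p = 0.00574 and 0.00106). Aurkb, the kinase of the passenger complex, was at background in qHF-SC (13.2 and 17.6), so the size of its first rise, 4.52-fold (adjusted p = 0.0111), is uncertain. With an offset of 16 the log2 difference was 1.44 and no longer passed (0.0722). Aurkb rose 6.84-fold from aHF-SC to HF-TAC (adjusted p = 0.00131). In aHF-SC against qHF-SC all 6 calls ended without qHF-SC replicate 2, where calls over all genes also became fewer. The log2 difference there was 2.83 for Birc5, 2.78 for Cdk1, 2.10 for Plk1 and 2.38 for Aurkb. The count was also lower without qHF-SC replicate 1 or aHF-SC replicate 1, and the Aurkb call ended without aHF-SC replicate 1 (log2 difference 2.07).

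**Figure D5:**
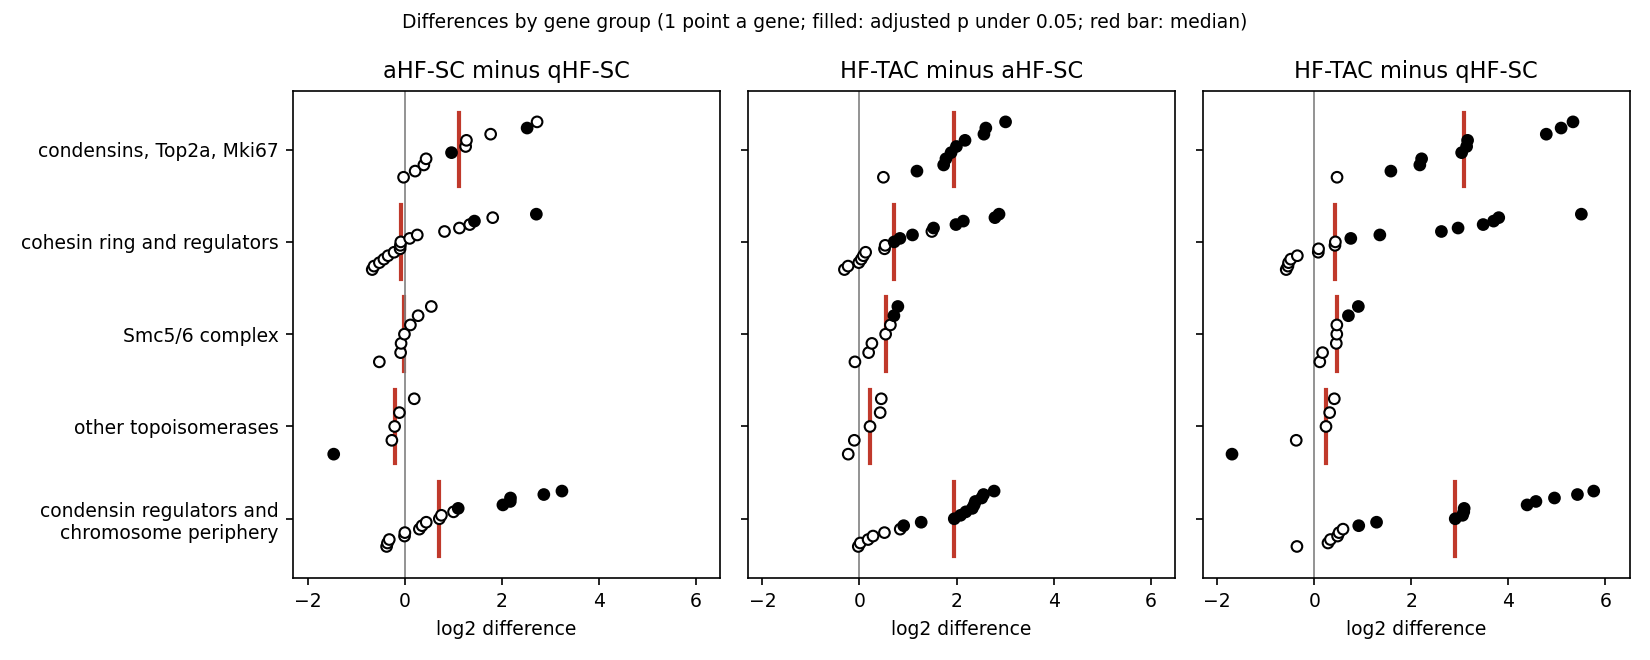
log2 differences in each comparison for the condensins with Top2a and Mki67 and for 4 related gene groups (1 point a gene, filled where the adjusted p is under 0.05; red bars are medians). In HF-TAC minus qHF-SC the medians are 3.09 for the condensins with Top2a and Mki67, 0.44 for cohesin and 0.47 for Smc5/6.

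The wider division programmes frame these values. Of 24 G2/M and mitosis genes 17, 23 and 23 were higher in the comparisons of aHF-SC with qHF-SC, HF-TAC with aHF-SC and HF-TAC with qHF-SC, with median log2 differences of 1.96, 2.46 and 4.53. Of 20 G1/S and DNA replication genes 5, 20 and 20 were higher, with medians of 0.69, 1.67 and 2.31. In aHF-SC against qHF-SC both counts fell without either qHF-SC array or aHF-SC replicate 1. The calls over all genes fell too, so the fall is not particular to these lists. Without aHF-SC replicate 2 the G2/M count rose and the G1/S count fell. With an offset of 16 the counts were 4 of 24 and 2 of 20 (1.2% of all genes were higher). In the test against a 2-fold change they were 3 and 0 (0.0934%). In qHF-SC 6 of the 24 G2/M genes (Ccnb2, Bub1, Cenpe, Cenpf, Kif11 and Kif20a) were at background, so the medians of that list against qHF-SC are uncertain in size.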

How the data were processed

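Values are intensities of probe sets that the authors deposited on a linear scale; RMA is named in the submitters' processing notes, with no version or role, and no chip definition is named. Such summaries usually compress large folds and dim signals. Each array used 2 µg of RNA, per the labels' protocols. Intensities were put on the log2 scale with no pseudocount, and the fits used no filter. Likeness between genes was measured only among genes with a mean intensity over the 6 arrays of at least 50. Of 45101 probe sets 64 were controls; 34945 carried 1 gene symbol, 932 several and 9160 none. Each gene was tested through its probe set with the highest mean, and all probe sets were also fitted as separate features. A group-means model over all 6 arrays was fitted in limma 3.58.1 (R 4.3.3), two-sided, with Benjamini-Hochberg adjustment over all features and a threshold of 0.05. The fit was tested on simulated data. The number of arrays, 2 per group, limits the precision; no replicate pair was identical. All 10 members are described, and of pathway lists up to 4 genes per comparison with the largest difference past the threshold (or, with none past it, the lowest p); Smc1a, Smc3, Rad21 and Top2b were named outside this rule after their values were seen, and of the 2 division programmes, to which the rule also applied, counts alone are given. Members and lists were chosen with earlier results of these data known, so list counts are descriptions. Promoter sequences are from RefSeq (GRCm38.p6). Alternatives covered the probe set choice, normalization, an offset, a filter on dim genes, the variance model, the arrays in the fit, a test against a 2-fold change, the replicate block and each array left out.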

Additional observations from a re-analysis of the deposited data

How the results depend on the processing

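Of 10 members, 2, 9 and 9 were called in aHF-SC against qHF-SC, HF-TAC against aHF-SC and HF-TAC against qHF-SC; of 26 probe sets, 3, 18 and 19. Leaving out 1 array in turn, these ranged over 0 to 5, 6 to 9 and 8 to 9 members and 0 to 7, 10 to 17 and 16 to 20 probe sets; an array left alone in its group was assumed to vary like the others. In aHF-SC against qHF-SC, 1 member was called after averaging a gene's probe sets, where 2.8% of all genes were called higher. That member was Ncaph, and the calls of Top2a and Ncapd2 both ended there. Scaling to the 75th percentile called 5 members and 7 probe sets (3.8% of all genes and 3.05% of all probe sets were higher). An offset of 16 called 0 members and 0 probe sets (1.2% and 0.766%). A test against a 2-fold change called 0 and 0 (0.0934% and 0.0466%). An intensity trend called 5 probe sets (2.6%). The test against a 2-fold change called 1 member and 1 probe set in HF-TAC against aHF-SC (0.956% of all genes and 0.584% of all probe sets were higher). In HF-TAC against qHF-SC it called 8 members and 10 probe sets (2.42% and 1.59%). All other settings, apart from arrays left out 1 at a time, stayed within 1.5 times.

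Directions turned only between the stem cell states. Without the s_at, x_at and a_at probe sets Top2a differed by -0.17 and Ncaph2 by 0.038. Over the arrays left out Ncaph2 ranged from -0.14 to 0.092 (0.044 without aHF-SC replicate 1), Ncapg2 from -0.089 to 0.52 and Smc4 from -0.094 to 0.88. The labels do not say whether arrays with the same replicate number belong together. Differences between replicates 1 and 2 correlated over genes at 0.061, -0.13 and 0.084 between groups, which cannot settle this. With the replicate block 2, 9 and 9 members were called (2.25%, 7.82% and 12.7% of all genes were higher). The same setting called 4, 18 and 20 probe sets (2.31%, 5.82% and 10.4% of all probe sets). The Ncapd2 call between the stem cell states then ended (limma adjusted p = 0.0515) and Mki67 passed (0.0338). The cause of these changes was not tested. The contrast of the complexes without Ncapg was chosen after seeing the data.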

Other observations

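The condensin II subunit Ncapg2 lay closest to Ezh2, the histone methyltransferase of Polycomb repressive complex 2, with a root mean square difference of 0.11 in centred log2 values over the 6 arrays, followed by the kinetochore gene Dsn1 at 0.13. Dsn1 was also the gene nearest to Ncapd3, at 0.077. The kleisin gene Ncaph lay closest to Ung, the uracil-DNA glycosylase, at 0.11. These neighbours came from genes with a mean intensity of at least 50 and were picked after their values were seen. The arrays share cell group, and no test was made.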
